A study of Mus musculus with 14 samples.

Results

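The regions described here are the SOX10 ChIP regions on mouse chromosomes 7, 14, 16 and 17, selected on the number of regions per Mb in the deposited list, which was low on them. They numbered 1016 of the 7929 regions in the list, or 12.8%, with 328 on chromosome 7, 259 on chromosome 14, 226 on chromosome 16 and 203 on chromosome 17. The list came from 2 SOX10 ChIP samples of PY230 tumors and is named as ChIP against the 1 control sample. PY230 is a mouse mammary tumor cell line on the C57BL6J strain, which was transplanted into syngeneic mice to form the tumors. The ChIP cells carried SOX10-AVI and BirA, a biotin ligase that recognises the AVI peptide, and ChIP and control chromatin both went over streptavidin beads with extra SDS washes. The labels call the control cells only "control" and do not say which of the 2 constructs they carried, and all 3 samples are adult mammary tumors. Because both ChIP samples enter the list as a single result, spread between replicates could not be computed and no difference was tested. Sequencing depth per sample is unknown.

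SOX10 is a transcription factor of the SoxE group that binds DNA through an HMG box and bends it. It is best known for specifying neural crest cells and their glial and melanocyte derivatives, and in the mammary gland it is linked to progenitor states. ChIPmentation maps where such a factor sits by inserting sequencing adapters with a transposase while the chromatin is still held on beads. Mouse chromosomes have the centromere at one end, and the listed sequence of each begins at position 3000000 after a placeholder for it. Positions below are those of build mm9, and a chromosome's length runs from position 3000000 to the end of its last region. No sequence or gene annotation of mm9 was used here, so regions and empty stretches are given by position and not by gene. Gaps in the assembled sequence and repeats were not examined. An empty stretch is thus one with no listed region, and whether reads could be placed there was not tested.

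Chromosome 14 held 2.15 regions per Mb (95% Poisson interval 1.89 to 2.43), chromosome 7 held 2.20 (1.96 to 2.45), chromosome 17 held 2.28 (1.98 to 2.62) and chromosome 16 held 2.38 (2.08 to 2.71). Counted from the lowest, these densities ranked 1, 2, 3 and 5 among the 19 autosomes. The 4 intervals overlapped, so the order among the 4 chromosomes was not resolved. Regions lie in groups and are not independent, which makes the intervals too narrow. Chromosome 5, which was not among the chromosomes chosen, lay between chromosomes 17 and 16 at 2.35 regions per Mb, and chromosomes 6 and 2 followed at 2.39 and 2.52. Pooled, the 4 chromosomes had 2.24 regions per Mb, against 3.52 on the other 15 autosomes. The density chose these chromosomes and is given as a description.

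Empty stretches over 3 Mb took up more of chromosomes 7, 14 and 17 than of all autosomes together (24.4%), and about as much of chromosome 16. The share of length in such stretches depends on the density that chose the chromosomes and is described only. There were 27 of them on the 4 chromosomes, with a median length of 4.22 Mb, adding up to 143 Mb or 31.5% of the length. On the other 15 autosomes 98 such stretches covered 22.8%, and on chromosomes 2, 5 and 6 there were 28, covering 26.9%. By chromosome the share was 35.2% on chromosome 14, 32.4% on chromosome 7, 31.8% on chromosome 17 and 24.9% on chromosome 16. Chromosomes 14, 7 and 17 ranked 2, 4 and 5 of the 19 autosomes in this share, and chromosome 16 ranked 9. Chromosome 5 (36.5%) ranked 1 and chromosome 8 (34.4%) ranked 3.

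Each of the 4 chromosomes had 1 stretch of over 9 Mb without a region. This was not particular to them, as chromosomes 15 (12.6 Mb), 12 (9.82 Mb) and 5 (9.72 Mb) also had such a stretch. The one on chromosome 15, among the densest autosomes, was longer than any on the 4 chromosomes. On chromosome 7 the longest ran for 11.8 Mb, from 39002883 to 50834791. It was bounded by a region of 441 bp with a signal of 0.0808 on one side and a region of 305 bp with a signal of 0.00800 on the other. On chromosome 14 it ran for 11.5 Mb, from 82465674 to 93942764, between regions with signals of 0.0239 and 0.0195. On chromosome 17 it ran for 10.1 Mb, from 14551925 to 24608774, and took up 11.3% of that chromosome; its bounding regions had signals of 0.0132 and 0.0239. On chromosome 16 it ran for 9.50 Mb, from 63794354 to 73294848, between regions with signals of 0.0157 and 0.0105. The signal is the authors' value per region, and its unit is not stated.

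The other long stretches lay at different places along each chromosome. On chromosome 7, the next longest stretches were 4773756 to 12595742 (7.82 Mb) and 56778059 to 62111540 (5.33 Mb). Of the 9 stretches of this chromosome, 7 lay before the midpoint of its length, on the centromere side. On chromosome 14, they were 109260642 to 116455955 (7.2 Mb) and the stretch from position 3000000 to its first region at 8621719 (5.62 Mb). The first regions of chromosomes 7, 16 and 17 started at 3058405, 3339698 and 3080209. On chromosome 16, stretches of 5.37 Mb (5137096 to 10510907) and 5.09 Mb (79878737 to 84972041) were the next longest, and 3 of its 4 stretches lay beyond the midpoint. Chromosome 17 had stretches of 4.82 Mb (8095549 to 12917286) and 3.61 Mb (75922482 to 79535148), with 3 of 6 on either side of the midpoint.

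Some stretches adjoined, with no more than 5 regions between them, and formed longer poor segments. The longest was on chromosome 14, where 15.9 Mb from 82465674 to 98407622 held 2 regions, with signals of 0.0195 and 0.0297. On chromosome 7, the 14.1 Mb from 56778059 to 70898392 held 6 regions, and the 12.6 Mb from 4773756 to 17377706 held 5. Further poor segments were 7.76 Mb and 6.21 Mb on chromosome 14, with 3 regions and 1 region, and 7.70 Mb on chromosome 17, with 4. Chromosome 16 had none. The limit of 5 regions was chosen after the positions had been seen, and such segments were not sought on other autosomes. Under this limit the chromosome 17 stretches of 4.82 Mb and 10.1 Mb were not joined, since 12 regions lay between them.

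**Figure D1:**
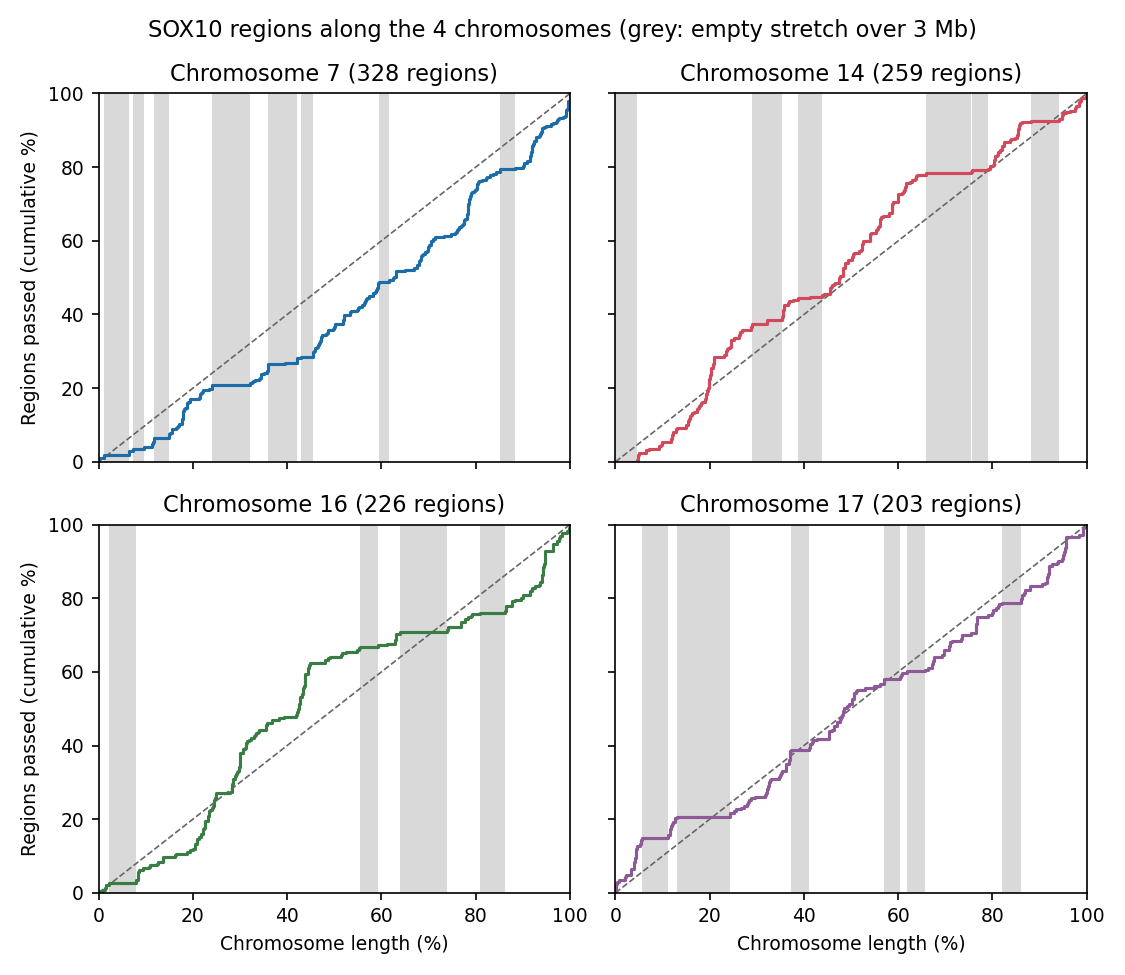
Cumulative share of SOX10 regions (y axis, %) against chromosome length from position 3000000 to the last region (x axis, %), for chromosomes 7, 14, 16 and 17; grey bands are empty stretches over 3 Mb and the dashed line is even spacing. Chromosome 7 falls up to 17.1 percentage points below the dashed line, chromosome 17 follows it most closely (at most 9.05 points away), and chromosome 16 rises steeply before its midpoint, where 64.2% of its regions lie.

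Region density differed between the sides of the midpoint on chromosomes 7 and 16 more than on the others. Chromosome 7 held 119 regions before its midpoint (1.59 per Mb) and 209 beyond it (2.80 per Mb). On chromosome 16 the order was the opposite, with 145 (3.05 per Mb) and 81 (1.70 per Mb). Chromosome 14 had 142 and 117 regions on the 2 sides, and chromosome 17 had 104 and 99. The low density was thus not tied to one side of the chromosome across the 4.

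In windows of 10 Mb, density ranged from 0 to 6.0 regions per Mb on the 4 chromosomes, with a median of 2.1. Window counts also depend on the density that chose the chromosomes, so the comparisons with other autosomes are a description. Of 47 windows, 10 reached the mean of all autosomes, 3.28 per Mb, and 19 lay below 1.64, or 50% of it. On the other 15 autosomes 92 of 201 windows reached the mean (45.8%, against 21.3%) and 39 lay below 1.64 (19.4%, against 40.4%). Chromosomes 2, 5 and 6 had 13 of 48 and 15 of 48. The other 18 windows of the 4 chromosomes lay between both values. By chromosome, 7 of 15 windows were below 1.64 on chromosome 7, 6 of 13 on chromosome 14, 4 of 10 on chromosome 16 and 2 of 9 on chromosome 17, so poor windows made up under 50% of each chromosome.

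A few windows stood above the rest of their chromosome. On chromosome 16 the window from 23 to 33 Mb held 60 regions, 26.5% of the chromosome's total, and the window from 43 to 53 Mb held 38. Its windows from 83 to 93 Mb (33 regions) and from 93 Mb to the end (21 regions, 4.10 per Mb) were also above the mean. Between 63 and 73 Mb the same chromosome held 2 regions. On chromosome 14 the window from 23 to 33 Mb held 52 regions (20.1%), and the window from 83 to 93 Mb held 0. Its only other window above the mean was the last, which was 0.572 Mb long and held 3 regions. On chromosome 7 the windows from 113 to 123 Mb (45 regions), from 143 Mb to the end (36) and from 23 to 33 Mb (35) were above the mean, and the window from 43 to 53 Mb held 5. Chromosome 17 had the narrowest range, from 10 regions between 13 and 23 Mb to 34 between 83 Mb and the end.

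Empty stretches made up only part of the difference in density from the other 15 autosomes. With all stretches over 3 Mb left out, chromosomes 16, 7, 14 and 17 had 3.16, 3.25, 3.32 and 3.35 regions per Mb. These values ranked 3, 4, 6 and 7 from the lowest of the 19 autosomes. Chromosomes 9 (2.93) and 2 (3.12) were lower, and chromosome 6 (3.26) lay among them. The same measure was 3.32 on chromosomes 2, 5 and 6, 4.56 on the other 15 autosomes, and 6.27 on the 6 densest autosomes (4, 11, 13, 15, 18 and 19). The 4 chromosomes thus stood at 0.635 times the other 15 autosomes before and 0.715 times after the stretches were left out. Against the 6 densest the ratio went from 0.437 to 0.520. Against chromosomes 2, 5 and 6 it went from 0.922 to 0.983, so little of that smaller difference was left.

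**Figure D2:**
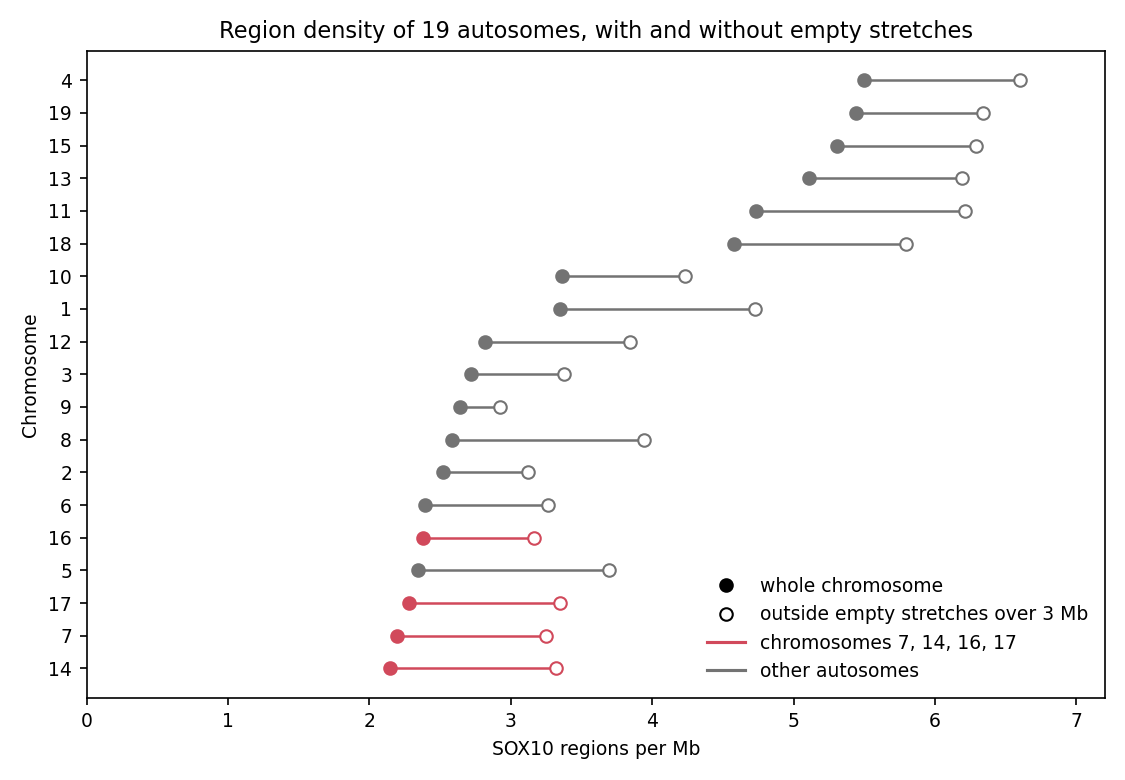
SOX10 regions per Mb (x axis) of the 19 autosomes (y axis, ordered by density) over the whole chromosome (filled circles) and outside empty stretches over 3 Mb (open circles). Chromosomes 7, 14, 16 and 17 move from between 2.15 and 2.38 to between 3.16 and 3.35, below every whole-chromosome value of the 6 densest autosomes, the lowest of which is 4.58. Outside the stretches, chromosomes 9 and 2 lie lower, at 2.93 and 3.12.

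Windows of 1 Mb described the low density at a finer scale, and their counts likewise depend on the density that chose the chromosomes. Of 456 windows on the 4 chromosomes, 174 (38.2%) held no region, against 29.8% on the other 15 autosomes and 24.2% on the 6 densest. A window that held any region held 3.60 on average, against 5.0 and 6.74. Compared with the other 15 autosomes, the share of windows with a region was 0.881 times as high and the number per such window 0.720 times as high. On a log scale, the second factor made up 72.2% of the difference in density, and 75.5% of the difference from the 6 densest. Compared with chromosomes 2, 5 and 6, the factors were 0.947 and 0.975, and the second made up 31.4% of that difference. By chromosome, the number per window with a region was 3.44 on chromosome 17, 3.60 on chromosome 14, 3.64 on chromosome 7 and 3.70 on chromosome 16. Chromosomes 9 and 2, at 3.52 and 3.56, lay between chromosomes 17 and 14 in this number. The share of empty windows ran from 33.7% on chromosome 17 to 40.5% on chromosome 14.

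Windows with 10 or more regions numbered 15, or 3.29% of windows on the 4 chromosomes, and held 17.6% of the regions. They made up 17.2% of windows on the 6 densest autosomes, where they held 53.6% of regions, and 2.52% on chromosomes 2, 5 and 6. The share of windows needed to hold 50% of a set's regions was close in the 3 sets, at 14.7%, 15.5% and 16% for the 4 chromosomes, the 6 densest and chromosomes 2, 5 and 6. The variance of regions per window divided by the mean was 3.55 on the 4 chromosomes, 3.64 on chromosomes 2, 5 and 6, and 7.34 on the 6 densest. All these values lie above 1, the value that independent even placement would give.

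**Figure D3:**
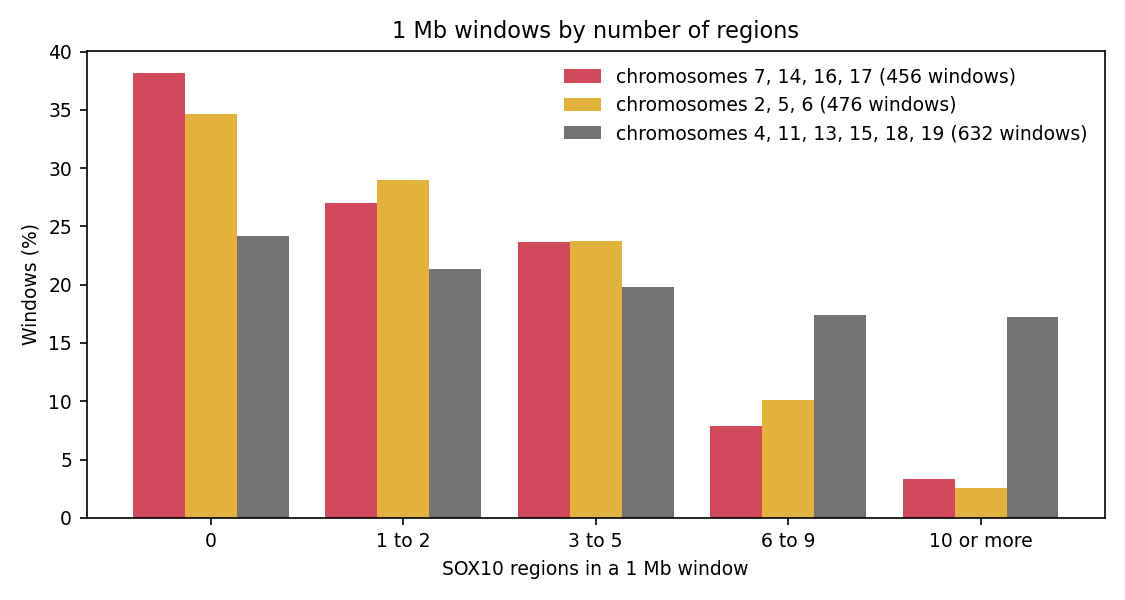
Share of 1 Mb windows (y axis, %) by the number of SOX10 regions they hold (x axis), for chromosomes 7, 14, 16 and 17, for chromosomes 2, 5 and 6, and for the 6 densest autosomes; bars are percentages of all windows of a set. Empty windows make up 38.2%, 34.7% and 24.2%, and windows with 10 or more regions 3.29%, 2.52% and 17.2%.

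The 3 densest 1 Mb windows of each chromosome held 10 to 16 regions each. Of the 15 windows with 10 or more regions, 5 lay on chromosome 7, 4 on chromosome 16 and 3 each on chromosomes 14 and 17, so 3 are not named here. On chromosome 16, 92 to 93 Mb held 16 regions, 44 to 45 Mb held 13 and 31 to 32 Mb held 12. In the last of these the signals ran from 0.0190 to 0.0498, with a median of 0.0332. On chromosome 7, 140 to 141 Mb held 14 regions, 151 to 152 Mb held 13 and 120 to 121 Mb held 12. On chromosome 14, 2 of the densest windows adjoined, with 13 regions from 26 to 27 Mb and 11 from 27 to 28 Mb, and 73 to 74 Mb held 10. On chromosome 17, 6 to 7 Mb held 12 regions, 35 to 36 Mb held 11 and 84 to 85 Mb held 10. Median signals in these 12 windows ran from 0.0198 (chromosome 14, 26 to 27 Mb) to 0.0332, all within the quartiles of the 4 chromosomes' signal, 0.0182 and 0.0336. In the chromosome 16 window with 16 regions the median was 0.0220.

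Gaps between neighbours depend on the density that chose the chromosomes and are described only. Of 1012 neighbouring pairs on the 4 chromosomes, 186 (18.4%) were less than 10 kb apart, against 23.4% on the other 15 autosomes and 17.1% on chromosomes 2, 5 and 6. The median gap was 98.2 kb (quartiles 19.4 and 398), against 56.4 kb on the other 15 autosomes. With regions closer than 10 kb joined, the 1016 members formed 830 units: 693 stood alone, 102 were pairs and 35 held 3 or more. Runs of 5 or more regions made up 2 of these 830 units (0.241%), 3 of 953 on chromosomes 2, 5 and 6 (0.315%), and 53 of 5239 on the other 15 autosomes (1.01%), 37 of the 53 lying on the 6 densest. The longer was on chromosome 16, from 92990047 to 93014390, with 6 regions over 24.3 kb and a median signal of 0.0243. The other was on chromosome 17, from 3080209 to 3084569, with 5 regions over 4.36 kb and a median signal of 0.230. The largest runs of chromosomes 7 and 14 held 4 regions each. Chromosome 7 had 4 such runs, with median signals from 0.0208 to 0.103, the highest of them from 12595743 to 12601239. Chromosome 14 had 2, from 73774070 to 73789140 with a median signal of 0.0303 and from 17579784 to 17589334 with 0.0144, the second including a region at 0.

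Signal, which did not enter the choice of chromosomes, had a lower median on the 4 chromosomes than on the other autosomes together. The median value was 0.0251 (quartiles 0.0182 and 0.0336, n = 1016 regions), against 0.0285 on the other 15 autosomes (0.0204 and 0.0378), 0.0283 on chromosomes 2, 5 and 6, and 0.0315 on the 6 densest. Of chromosomes 2, 5 and 6, chromosome 5 was higher, with a median of 0.0325, and chromosomes 6 and 2 had 0.0266 and 0.0268. By chromosome it was 0.0239 on chromosome 14, 0.0249 on chromosome 16, 0.0253 on chromosome 17 and 0.0263 on chromosome 7. These medians ranked 2, 5, 7 and 9 from the lowest of the 19 autosomes, with the lowest on chromosome 3 (0.0231). The quartiles of all these sets overlapped.

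Signal times width came out as a whole multiple of 0.0479, within 0.05 of a multiple, in 100% of the 963 members under 1500 bp with a signal above 0. The step of 0.0479 was fitted so that as many listed regions of this kind as possible came out at a whole multiple. These members were among the regions fitted, so the share is not an independent check. Such a step is what a mean coverage per base would give. The multiple was itself a multiple of 54 in 42.0% of these members, so that most came out at a fractional number of reads of that length. Divided by the step and by 54 bases, taken as the read length, a member had a median of 6.21 read equivalents (quartiles 4.00 and 9.88), against 7.83 on the other 15 autosomes. The value was below 10 in 75.4% of members and 20 or more in 38 of them (3.74%, against 9.50% on the other 15 autosomes). These values include the 39 members of 1500 bp or more, for which the step was neither fitted nor checked. Read equivalents are a reading of the values and not reads counted by the authors, and it is not known whether they are net of a control.

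Members in crowded and in nearly empty windows had close signals. With 1 or 2 regions in a 1 Mb window the median signal was 0.0247 (178 regions), with 3 to 5 it was 0.0252 (408), with 6 to 9 it was 0.0248 (251) and with 10 or more it was 0.0258 (179). Median width in the same 4 classes was 611, 636, 661 and 682 bp. At the edges of empty stretches the median was 0.0239 (51 regions, quartiles 0.0159 and 0.0309), and in the other 965 members it was 0.0252. In 10 Mb windows with at least 5 regions, median signal ran from 0.0190 (chromosome 14, 13 to 23 Mb) to 0.0392 (chromosome 17, 13 to 23 Mb, 10 regions). The last window belongs to an island of 12 regions over 1.63 Mb on chromosome 17, from 12917287 to 14551924. It lies between 2 empty stretches, and its signals run from 0.00928 to 0.0646.

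Median width was also lower than on the other autosomes together, with chromosome 14 the nearest to them. Widths ran from 117 to 3062 bp with a median of 644 bp (quartiles 470 and 874), against 692 bp on the other 15 autosomes and 665 bp on chromosomes 2, 5 and 6. Chromosomes 16, 17 and 7 ranked 1, 2 and 3 from the narrowest of the 19 autosomes by median width, at 615, 643 and 645 bp, and chromosome 14 ranked 12 with 678 bp. Regions of 1500 bp or more numbered 39 (3.84%), against 4.87% on chromosomes 2, 5 and 6, 7.90% on the other 15 autosomes and 10.9% on the 6 densest. Chromosome 9, at 2.52%, was below the 4 chromosomes together. The widest was on chromosome 16 (25423880 to 25426941, 3062 bp, signal 0.0454). It came out at 53.8 read equivalents, by a step that was not checked at this width. The widest regions of chromosomes 17, 7 and 14 measured 2349 bp (71199855 to 71202203), 2200 bp (120733511 to 120735710) and 2172 bp (61613886 to 61616057), with signals of 0.0239, 0.0224 and 0.0270.

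**Figure D4:**
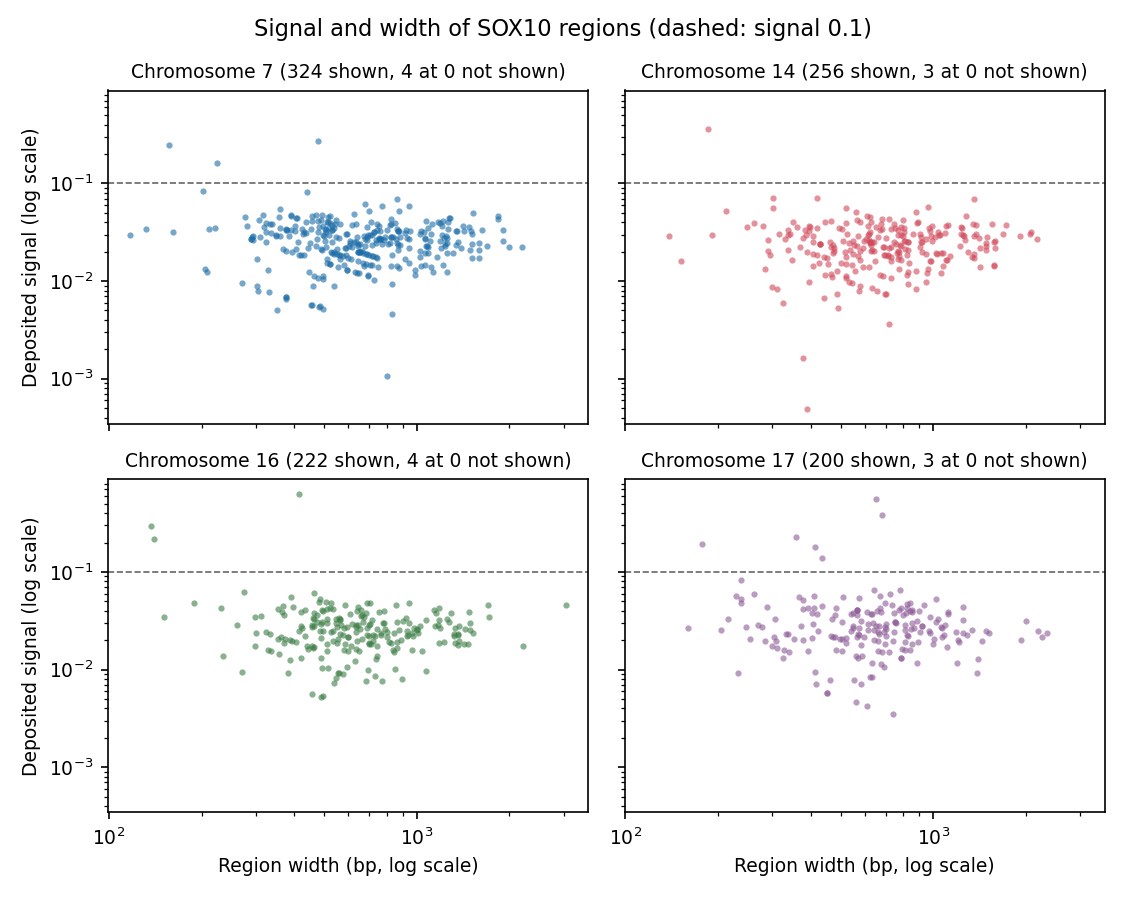
Deposited signal (y axis, log scale) against region width (x axis, bp, log scale) for regions on chromosomes 7, 14, 16 and 17; each point is 1 region and the 14 regions at a signal of 0 are not shown. The 13 points above the dashed line at 0.1 have widths of 137 to 679 bp, 6 of them under 300 bp, and no region lies between 0.0841 and 0.139.

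Strong regions were few, and a gap in signal separated them from the rest. A total of 13 members (1.28%) had a signal above 0.1, a limit chosen after the values had been seen, against 55 (0.804%) on the other 15 autosomes. Leaving out regions within 100 kb of position 3000000 gave 8 (0.792%) and 46 (0.674%). On chromosomes 2, 5 and 6 the share above 0.1 was 1.13% (13 of 1149), and 1.05% without regions near position 3000000. On the 6 densest autosomes it was 0.372% and 0.124%. The 13 members above 0.1 had a median width of 358 bp. Of these, 2 on chromosome 17, of 650 and 679 bp, were wider than the median of the 4 chromosomes. Chromosome 16 held the strongest (11144009 to 11144423, signal 0.626, 101 read equivalents), followed there by 45353072 to 45353208 (137 bp, 0.298) and 3339698 to 3339837 (140 bp, 0.218). Chromosome 14 had 1 such region, at 105115039 to 105115223 (185 bp, 0.364), and its next 2 were 120735565 to 120735984 (0.0718) and 35317085 to 35317385 (0.0709). On chromosome 7 they were 12595743 to 12596220 (0.269), 137977974 to 137978130 (157 bp, 0.247) and 12596921 to 12597145 (0.160). The strongest and the weakest of these belong to 1 run, which sits on the edge of the empty stretch of 7.82 Mb.

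Chromosome 17 held 6 of the 13, and 5 of these formed the run at its start. The strongest were 3081520 to 3082169 (signal 0.559, 140.5 read equivalents), 3080209 to 3080887 (0.381) and 3082534 to 3082891 (0.230). The run lies within 100 kb of position 3000000, at the centromere end. Of the regions on chromosome 17, 21 (10.3%) had a signal among the highest 10% of the list, and 16 of 198 (8.08%) did without this run. On chromosomes 16, 7 and 14 the share was 4.87%, 4.27% and 3.86%, and on the 4 chromosomes together it was 5.51%, against 10.6% on the other 15 autosomes. The 4 chromosomes thus held a smaller share of this upper 10% than the other 15 autosomes or chromosomes 2, 5 and 6 (8.62%). Their share above a signal of 0.1 was not smaller than on the other 15 autosomes. Without regions near position 3000000 that share was below the one on chromosomes 2, 5 and 6 (0.792% against 1.05%).

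A group of 14 members (1.38%) was listed at a signal of 0, against 0.820% of the whole list. They lay on all 4 chromosomes, 4 on chromosome 7, 3 on chromosome 14, 4 on chromosome 16 and 3 on chromosome 17. Their median width was 299.5 bp (range 199 to 684). None was the only region of its 1 Mb window.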

How the data were processed

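The deposited list gives, per region, a chromosome, start, end, name and a signal made by the authors, with no formula or unit stated. The submitters' processing notes name FastQC, Bowtie 0.12.8, SAMtools 1.3.1, MACS2 2.1.1 and build mm9. Parameters and the calling threshold are not stated there. Both ChIP samples share the 1 list. The H3K27ac samples and the inputs were not analysed here.

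Starts were made 1-based. Regions were assigned to windows by midpoint, from position 3000000. Empty stretches are gaps between neighbouring regions, or from position 3000000 to the first. Python 3.11.15 with pandas 2.3.3 and scipy 1.17.1 was used, and the counting functions were tested on simulated data. Poisson intervals are exact at 95% and cover counting error only. No test was made, since the list has no replicates. Gene and sequence work was planned only for an mm9 annotation; the gene table at hand was of another build and was not used here. Named were the 3 longest stretches, the 3 densest 1 Mb windows, the 3 strongest regions, the widest region and the largest run of each chromosome. The members and measures were chosen with earlier results of these data known.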

Additional observations from a re-analysis of the deposited data

How the results depend on the processing

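No paired analysis was possible because no sample numbers enter the single pooled list, and no library could be left out. The 4 chromosomes stood at 0.635 times the density of the other 15 autosomes, at 0.496 times among the 50% of the list with the highest signal and at 0.677 times with runs under 10 kb counted once. The 27 empty stretches became 54 at a limit of 2 Mb, 10 at 5 Mb and 44 among the 50% with the highest signal, against 98, 202, 23 and 148 on the other 15 autosomes. The share of empty windows, 38.2% at 1 Mb, was 55.9% at 0.5 Mb, 21.0% at 2 Mb and 6.45% at 5 Mb. The other 15 autosomes had the lower share at each size (29.8%, 47.2%, 15.1% and 1.77%). The 12 windows with the most regions held 14.7% of the regions at 1 Mb, 10.1% at 0.5 Mb and 21.4% at 2 Mb, where the other 15 autosomes, over 45 windows, had 14.8%, 11.2% and 19.3%. The share of close neighbours was 12.1% at 5 kb and 39.0% at 50 kb. Counts and shares at other limits move by construction. Density outside empty stretches was 4.16 regions per Mb at a limit of 2 Mb and 2.71 at 5 Mb, against 5.48 and 3.84 on the other 15 autosomes. Chromosomes 2, 5 and 6 together had 4.13 and 2.69, slightly below the 4 chromosomes at both limits. Median signal and width moved within their counting intervals without regions at 0, under 1500 bp, and without regions near position 3000000. With a median of 6.21 read equivalents, the ranking of single regions is imprecise.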
